A study of Homo sapiens with 12 samples.

Results

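The 10 genes described here encode ligands, receptors, adaptors and a response gene of tumor necrosis factor (TNF), CD40 and 4-1BB signaling. They are TNF, LTA, LTB, CD70, TNFRSF9 (4-1BB), CD40, TRAF1, TRAF2, TRAF3 and TNFAIP2, and they were taken by symbol from the 60617 genes of the expression table. The members were chosen by name with earlier results of these libraries known, including their differences between cerebrospinal fluid and standard medium. Those differences are therefore given below as values with their errors and no p-value. The calls that the fit over all genes makes in them are counted only beside the share called among all genes, and support nothing.

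Messenger RNA was sequenced from NALM-6 and REH, 2 established human lines of B-cell lymphoblastic leukemia. Each line was kept for 48 h either in RPMI medium with 10% fetal calf serum (the RPMI groups) or in human cerebrospinal fluid (the CSF groups), which bathes the brain and spinal cord. This gave 4 groups of 3 libraries, 12 in all: NALM-6 RPMI, NALM-6 CSF, REH RPMI and REH CSF. The labels give no drug treatment and no genetic change for any group, and do not say from how many donors the fluid came or whether serum was added to it. Each group is a single cell line, so a difference between NALM-6 and REH is a difference between these lines and not between leukemia subtypes. Separate cultures are not stated for the libraries of a group, and the p-values therefore reflect variation among libraries that may be only technical.

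Ligands of the TNF superfamily are mostly membrane proteins of leukocytes that bind as trimers to receptors on other cells or on the same cell. Receptors such as CD40 and 4-1BB have no enzyme activity of their own and pass the signal on through TRAF adaptor proteins, which lead to NF-kB and MAP kinase signaling. TRAF2 and TRAF3 act together in the complex that degrades the NF-kB-inducing kinase in resting B cells. TRAF1 is itself a well known NF-kB target. CD40 on B cells receives help from T cells that carry CD40 ligand, whereas 4-1BB is best known as a costimulatory receptor of activated T cells.

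TNF, LTA and LTB lie side by side on chromosome 6 (GRCh38, GENCODE release 29): LTA at chr6:31572054-31574324 and TNF at chr6:31575567-31578336 on the plus strand, and LTB at chr6:31580525-31582522 on the minus strand. Only 1242 bases separate LTA from TNF, and 2188 bases separate TNF from LTB. TNFRSF9 lies at chr1:7915894-7943165 on the minus strand, CD40 at chr20:46118272-46129863 on the plus strand and CD70 at chr19:6583183-6604103 on the minus strand. TRAF1 is at chr9:120902393-120929173 on the minus strand, and TRAF2 is at chr9:136881912-136926607 on the plus strand. TRAF3 at chr14:102777476-102911500 and TNFAIP2 at chr14:103123442-103137439, both on the plus strand, are 211941 bases apart. All 10 are protein-coding. The genes that overlap members are small RNAs and processed pseudogenes, of which the highest, inside CD70, reached 0.342 CPM (reads per 1000000) in any library.

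Promoter sequence was available from RefSeq (GRCh38.p14) for 8 of the 10 members, in 12 windows that differ by start site, and not for CD40 and CD70. The 250 bases before each start were searched on both strands for the kB consensus, the AP-1 letters TGANTCA and the TATA letters TATAAA, which occurred in 9.96%, 6.57% and 10.7% of all 35116 promoters searched the same way. A kB match was present for 4 members (TNFRSF9, LTA, LTB and TRAF3), an AP-1 match for TNFRSF9 and a TATA match for TNF and LTA. These are matches of letters and not measured binding sites. The matches are shown here because the members differ in them, with the matching bases in capitals and flanking bases in lower case. TNFRSF9 holds overlapping kB matches at bases 74 to 64 before its start (chr1:7940894-7940922, minus strand) and an AP-1 match at bases 44 to 38 (chr1:7940866-7940894, minus strand), which do not overlap each other. LTA is shown at chr6:31572176-31572204 (plus strand), LTB at chr6:31582492-31582521 (minus strand) and TRAF3 at chr14:102777406-102777435 (plus strand). The RefSeq starts used for TNFRSF9, LTA and LTB lie inside the GENCODE spans given above. The matches shown for these genes are therefore inside those spans, and GENCODE exons overlap the 150 bases before these starts. The other LTA window, with an earlier start, held no match to any of these letters.
TNFRSF9 kB: agctgtggtGGGAATTTCCCatgagaccc
TNFRSF9 AP-1: ccgcccctggcTGAGTCAccgcactcctg
LTA kB: ctaagccctGGGGGCTTCCCcgggcccca
LTB kB: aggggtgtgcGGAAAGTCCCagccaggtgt
TRAF3 kB: cgggcgcgccGGGGATTTCCagcgcgcgag

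The last 150 bases before the RefSeq start of TNF (chr6:31575415-31575564, plus strand) hold a TATA match at bases 29 to 24, in capitals below, and the 250 bases searched hold no match to the kB or AP-1 letters. No match in this window says nothing about NF-kB or AP-1 at TNF elsewhere.
TNF: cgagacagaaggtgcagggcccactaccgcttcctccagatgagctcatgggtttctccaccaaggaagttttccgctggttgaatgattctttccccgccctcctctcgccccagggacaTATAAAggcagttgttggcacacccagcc

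The 12 libraries held 23412869 to 37146556 reads, and 3 reads, the upper limit that a count of 0 allows, equalled 0.0808 to 0.128 CPM. Such limits cover counting error only. B-lymphoblast markers summed to 2285 to 4757 CPM in every library, although VPREB1 stayed under 1 CPM in REH. T cell markers summed to at most 0.737 CPM in any library, with CD3D and CD8B without reads in all 12. NK cell markers, which came almost wholly from NKG7, summed to 2.46 to 6.98 CPM in NALM-6 RPMI, 7.96 to 8.27 CPM in NALM-6 CSF, 1.82 to 2.96 CPM in REH RPMI and 7.51 to 11.99 CPM in REH CSF, with NCAM1 without reads in all 12. FCGR3A, S100A8 and S100A9 among the monocyte markers and AQP4, SNAP25 and TTR among the brain markers were also without reads in all 12. The other monocyte markers differed by group, with list sums of 1.27 to 2.65 CPM in NALM-6 RPMI and 6.51 to 7.74 CPM in NALM-6 CSF. In REH the sums were 11.8 to 12.8 CPM in RPMI and 62.0 to 78.0 CPM in CSF, mostly from ITGAM and CSF1R. The brain and choroid list, mostly MBP, summed to 32.8 to 107 CPM in NALM-6 RPMI, 112 to 121 CPM in NALM-6 CSF, 29.6 to 33.7 CPM in REH RPMI and 14.6 to 29.2 CPM in REH CSF. The monocyte list moved with the members that were higher in REH and, in both lines, with those that were higher in CSF. The NK list also moved with the members that were higher in CSF. The part of either list in those differences was not tested. NALM-6 RPMI library 1 stood apart, with 21.9% of its reads in ribosomal protein genes against 7.74% and 8.53% in the other libraries of its group, and so did REH CSF library 3, with 10.3% against 5.72% and 6.25%. Both also had more reads in short genes, with a mean exonic length per read of 4.62 and 5.34 kb against 5.98 to 6.34 kb in the other 10. In bulk RNA, fewer cells that express a gene and less RNA per cell cannot be told apart.

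Tests were made with limma on log2(CPM + 1), a scale that shrinks the differences of weakly expressed genes, and a gene was called at an adjusted p under 0.05 over 14364 genes. All 10 members passed the filter of 1 CPM in 3 libraries. However, LTA, LTB and TNFAIP2 passed it only through REH, and TNFRSF9 only through NALM-6 CSF. LTA reached 1 CPM in 2 NALM-6 CSF libraries, too few to pass without REH. In the comparison of CSF with RPMI in NALM-6, 5 members were called higher (TNF, TNFRSF9, CD40, CD70 and TRAF1) beside a background of 10.9% of all genes called higher and 1.23% called lower, and the other 5 were not called. In REH, 6 members were called higher (TNF, LTA, CD40, CD70, TRAF1 and TNFAIP2) beside 13.2% of all genes called higher and 1.71% called lower, and the other 4 were not called. Since the members were selected on these values, nothing is read from these counts. edgeR called 3 of the 6 in REH, LTA, CD70 and TNFAIP2. Over 24 alternatives the call in REH held in 23 for CD40, in 19 for TNF and in 18 for TRAF1, and that of CD70 in NALM-6 in 21. It was lost for TNF without REH RPMI library 1 or 2, and for TRAF1 without REH RPMI library 2 or REH CSF library 2. In NALM-6, 7 members were called, LTA and LTB included, without NALM-6 RPMI library 1 and REH CSF library 3, described above.

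Scaling moved the balance of calls over all genes. The median gene differed by 0.25 (log2) between CSF and RPMI in NALM-6 and by 0.26 between the lines in RPMI, against 0.05 in both cases with median-of-ratios scaling, so differences of the members are to be read against these shifts. In NALM-6, 1565 genes were called higher and 177 lower in CSF, against 1113 and 364 with median-of-ratios scaling and 712 and 406 with quantile normalization. In REH, 1899 were called higher and 245 lower, against 1446 and 541 and against 1233 and 839 with the same methods. Between the lines in RPMI, 3791 were higher and 1935 lower in REH, against 3249 and 2552 and against 2903 and 3150. In CSF the split was 3515 and 1931, against 3022 and 2997 with quantile normalization. Every member called in 1 of these comparisons kept its direction under both methods.

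**Figure D1:**
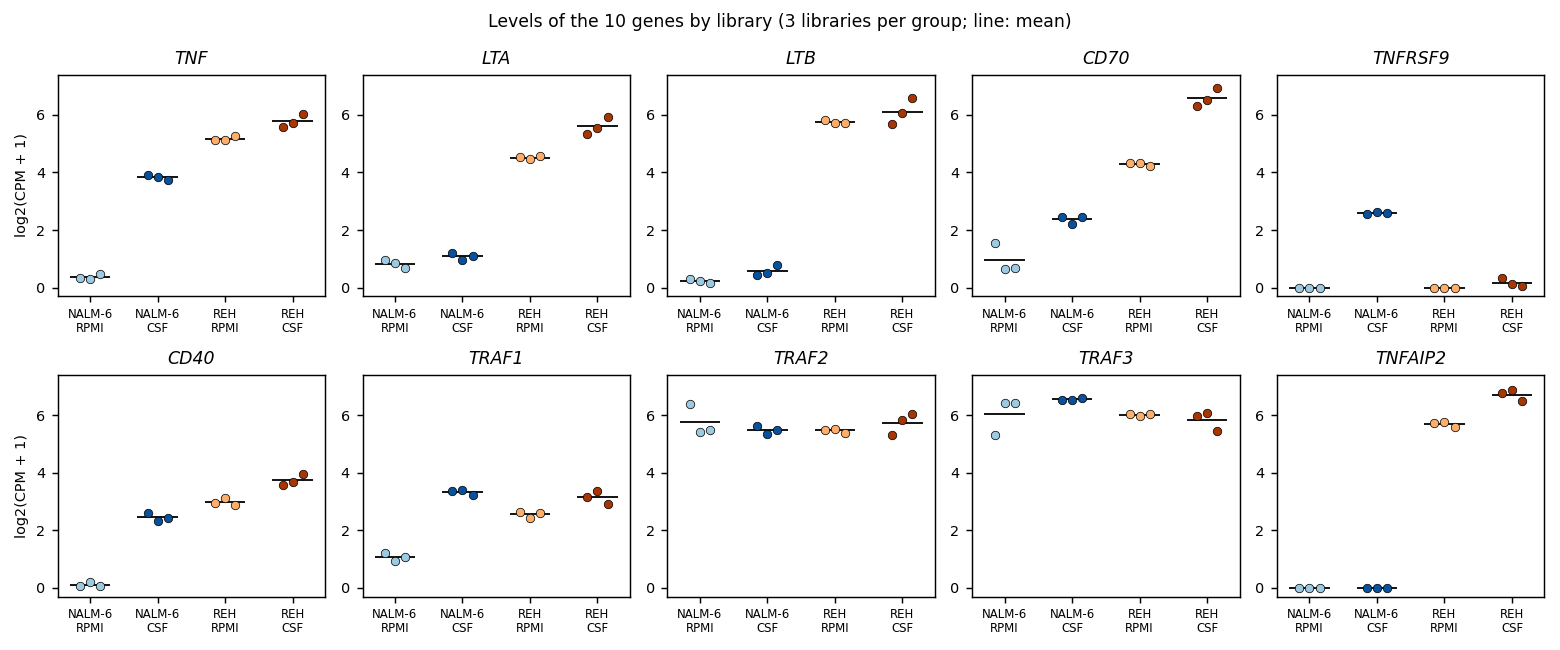
Levels of the 10 genes in each library as log2(CPM + 1), 1 panel per gene, with 3 points per group for libraries 1 to 3 from left to right and a line at their mean. TNF, CD40 and TRAF1 are near the bottom in NALM-6 RPMI and well above it in NALM-6 CSF, TNFRSF9 is clearly above 0 in NALM-6 CSF, and TNFAIP2 is at 0 in all 6 NALM-6 libraries.

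Among the ligands, TNF had the widest range in NALM-6. TNF encodes the founding cytokine of the family, which acts through TNFRSF1A and TNFRSF1B. Its level was 0.275, 0.216 and 0.377 CPM in NALM-6 RPMI libraries 1 to 3 (8, 7 and 14 reads) and 14.0, 13.2 and 12.4 CPM in NALM-6 CSF. In REH it was 33.7, 33.8 and 37.3 CPM in RPMI and 47.1, 52.0 and 64.2 CPM in CSF. The 4 groups did not overlap, and their order from low to high was NALM-6 RPMI, NALM-6 CSF, REH RPMI and REH CSF. Mean TNF was 45.7-fold higher in CSF than in RPMI in NALM-6 (log2 difference 3.46 ± 0.14, SE, n = 3 per group) and 1.56-fold higher in REH (0.61 ± 0.14). The gap between the lines was thus smaller in CSF: REH stood 121-fold above NALM-6 in RPMI and 4.12-fold above it in CSF.

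LTA encodes lymphotoxin alpha, which is secreted as a homotrimer or held at the membrane by LTB. It was at 0.928, 0.801 and 0.619 CPM in NALM-6 RPMI and at 1.32, 0.958 and 1.14 CPM in NALM-6 CSF (0.26 ± 0.16 on the log2 scale), and it was not called. The mean was 1.45-fold higher in NALM-6 CSF, and the NALM-6 groups did not overlap. REH had 21.9, 20.9 and 22.8 CPM in RPMI and 39.2, 45.8 and 59.6 CPM in CSF, 2.20-fold more (1.08 ± 0.16). Its REH groups did not overlap, and the highest of all 12 values was in REH CSF library 3.

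LTB encodes lymphotoxin beta, the membrane partner of LTA that signals through the lymphotoxin beta receptor in lymphoid tissue. It was barely detected in NALM-6, at 0.241, 0.185 and 0.108 CPM in RPMI and 0.346, 0.405 and 0.718 CPM in CSF. These groups did not overlap, and the mean of LTB was 2.76-fold higher in CSF (0.33 ± 0.20, not called). That ratio rests on 17 reads in the RPMI group and 43 in the CSF group. In REH LTB was at 55.6, 51.5 and 51.7 CPM in RPMI and 50.8, 66.2 and 93.9 CPM in CSF. The REH groups overlapped, and the mean ratio of 1.33 (0.36 ± 0.20) rested on REH CSF libraries 2 and 3. Without REH CSF library 3 and NALM-6 RPMI library 1 the REH difference of LTB was 0.13.

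CD70 encodes the ligand of CD27 and is normally transient on activated lymphocytes. Of the 4 ligands among the members, it had the largest difference between media in REH: 19.1, 19.1 and 17.5 CPM in RPMI against 79.0, 90.5 and 122 CPM in CSF, 5.24-fold (2.31 ± 0.25). In NALM-6 it was at 1.96, 0.554 and 0.592 CPM in RPMI and 4.50, 3.65 and 4.44 CPM in CSF, 4.05-fold (1.42 ± 0.25). The groups did not overlap in either line. NALM-6 RPMI library 1 held the high value of its group, and without it and REH CSF library 3 the difference was 1.72 in NALM-6 and 2.13 in REH.

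Per length of exon, TNF reached 7.88 CPM per kb in NALM-6 CSF, above CD70 with 2.74, CD40 with 1.80, TNFRSF9 with 0.802, LTA with 0.655 and LTB with 0.319. In REH CSF the order differed, with CD70 at 63.4 CPM per kb, LTB at 45.8, TNF at 32.5, LTA at 27.7, TNFAIP2 at 20.6, CD40 at 4.95 and TNFRSF9 at 0.0207. Among the 4 member ligands, TNF had the highest level per kb in NALM-6 CSF and CD70 in REH CSF. Other ligands of the family were not ranked on this scale.

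The receptors differed between the lines. TNFRSF9 encodes 4-1BB, and no read of it was counted in any RPMI library of either line. In NALM-6 CSF it was at 4.95, 5.23 and 5.06 CPM, from 143, 142 and 155 reads. In REH CSF only 7, 2 and 1 reads were counted, or 0.274, 0.0854 and 0.0346 CPM. Against 3 reads over the RPMI group, the level was at least 167-fold higher in CSF in NALM-6 and at least 3.82-fold higher in REH. The fitted differences were 2.60 ± 0.09 and 0.17 ± 0.09, which depend on the pseudocount.

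CD40 encodes the receptor for CD40 ligand. It was at 0.0344, 0.154 and 0.0538 CPM in NALM-6 RPMI, from 1, 5 and 2 reads, and at 5.12, 4.05 and 4.44 CPM in NALM-6 CSF. REH held 6.80, 7.70 and 6.35 CPM in RPMI and 11.0, 11.9 and 14.7 CPM in CSF. The 4 groups did not overlap and had the same order as those of TNF. The ratio of CSF to RPMI was 56.2 in NALM-6 (2.35 ± 0.13), on 8 reads in the RPMI group, and 1.80 in REH (0.76 ± 0.13).

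Of the adaptors, TRAF1, which lacks the RING domain of the other TRAF proteins and joins TRAF2 at 4-1BB, was at 1.31, 0.924 and 1.10 CPM in NALM-6 RPMI and 9.21, 9.47 and 8.32 CPM in NALM-6 CSF, 8.10-fold (2.25 ± 0.14). In REH it was at 5.23, 4.40 and 5.09 CPM in RPMI and 7.94, 9.23 and 6.53 CPM in CSF, 1.61-fold (0.58 ± 0.14). The media did not overlap in either line, and NALM-6 CSF and REH CSF overlapped.

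TRAF2 encodes the ubiquitin ligase adaptor recruited by TNF receptor 2, CD40 and 4-1BB. Its level was 81.8, 41.6 and 43.9 CPM in NALM-6 RPMI, 48.7, 39.9 and 43.8 CPM in NALM-6 CSF, 43.8, 45.3 and 40.8 CPM in REH RPMI and 39.1, 55.5 and 64.4 CPM in REH CSF. The groups overlapped in both lines, and the highest value was in NALM-6 RPMI library 1. The difference of CSF from RPMI was -0.27 ± 0.26 in NALM-6, or 0.04 without NALM-6 RPMI library 1 and REH CSF library 3.

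TRAF3, the adaptor that restrains alternative NF-kB signaling in resting B cells, was at 39.0, 84.4 and 84.9 CPM in NALM-6 RPMI and 90.1, 92.1 and 96.0 CPM in NALM-6 CSF. In REH it was at 64.7, 61.1 and 64.8 CPM in RPMI and 61.4, 66.3 and 42.4 CPM in CSF. NALM-6 RPMI library 1 and REH CSF library 3 held the low values. With them the differences of CSF from RPMI were 0.50 ± 0.28 in NALM-6 and -0.19 ± 0.28 in REH, and without them 0.13 and 0.01.

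TNFAIP2 was identified as a gene induced by TNF in endothelial cells. No read of it was counted in any of the 6 NALM-6 libraries, in either medium. In REH it was at 51.7, 53.4 and 47.5 CPM in RPMI and 107, 115 and 88.5 CPM in CSF, 2.04-fold (1.01 ± 0.12), and the groups did not overlap. TNFAIP2 was thus the member whose presence separated the lines completely in these libraries.

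The 2 libraries that stood apart also lay at the edge of their groups for several members. REH CSF library 3 was the highest of its group for TNF, LTA, LTB, CD40, CD70 and TRAF2, whose exons span 1532 to 3663 bases, and the lowest for TNFRSF9, TRAF1, TRAF3 and TNFAIP2, whose exons span 5029 to 8263 bases. NALM-6 RPMI library 1 was the highest of its group for LTA, LTB, CD70, TRAF1 and TRAF2 and the lowest for CD40 and TRAF3. The part of RNA or library quality in these values was not tested. Without both libraries, the differences of CSF from RPMI were 3.46 for TNF, 2.60 for TNFRSF9, 2.32 for CD40 and 2.31 for TRAF1 in NALM-6, and 0.49 for TNF, 0.92 for LTA, 0.65 for CD40 and 1.11 for TNFAIP2 in REH.

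**Figure D2:**
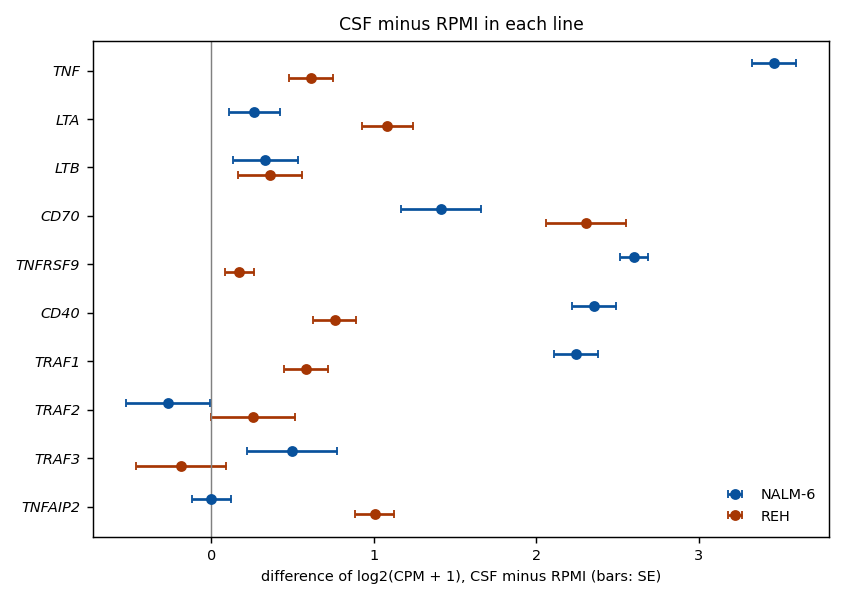
Difference of log2(CPM + 1) between CSF and RPMI for the 10 genes in NALM-6 (blue) and REH (brown), with bars for the SE from the limma fit on 3 libraries per group. TNF (3.46 against 0.61), TNFRSF9, CD40 and TRAF1 are farther right in NALM-6, and LTA, CD70 and TNFAIP2 are farther right in REH.

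Between the 2 responses, 1 member was called with a larger response in REH (TNFAIP2) beside 3.03% of all genes, and 4 with a smaller one (TNF, TNFRSF9, CD40 and TRAF1) beside 1.2%. These calls rest on the values that the members were chosen by and are given as a description. The difference of the responses, REH minus NALM-6, was -2.85 ± 0.19 for TNF, -2.43 ± 0.12 for TNFRSF9, -1.66 ± 0.19 for TRAF1, -1.60 ± 0.19 for CD40 and 1.01 ± 0.17 for TNFAIP2. For CD70 it was 0.89 ± 0.35 and for LTA 0.82 ± 0.22, and neither was called. CD40 and TNF started from under 0.4 CPM in every NALM-6 RPMI library and remained lower in NALM-6 CSF than in REH RPMI, so the larger response in NALM-6 did not bring either gene to the REH level.

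The next comparison was between the lines within each medium, REH against NALM-6. The members were chosen with results of all 4 groups known, so these tests are not independent support. LTA, LTB, TNFAIP2 and TNFRSF9, which were tested only through the groups where they are high, were favoured by the filter to differ. Their differences are given with no p-value and left out of the counts. Of the other members, TNF, CD40, CD70 and TRAF1 were higher in REH in RPMI, beside 26.4% of all genes called higher and 13.5% called lower. In CSF, TNF, CD40 and CD70 were higher in REH, beside 24.5% of all genes called higher and 13.4% called lower.

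The gap of the lymphotoxins was large in both media. LTB was 298-fold higher in REH in RPMI (log2 difference 5.52 ± 0.20) and 144-fold higher in CSF (5.54 ± 0.20). LTA was 28.0-fold higher in RPMI (3.69 ± 0.16) and 42.3-fold higher in CSF (4.51 ± 0.16). Every REH library exceeded every NALM-6 library for both genes.

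CD70 was 17.9-fold higher in REH in RPMI (3.33 ± 0.25, adjusted p = 9.002e-07) and 23.2-fold higher in CSF (4.22 ± 0.25, adjusted p = 1.01e-07). For TNF the log2 difference was 4.80 ± 0.14 in RPMI (adjusted p = 3.676e-10) and 1.95 ± 0.14 in CSF (adjusted p = 4.607e-07). CD40 was 86.1-fold higher in RPMI (2.88 ± 0.13, adjusted p = 1.673e-08) and 2.76-fold higher in CSF (1.28 ± 0.13, adjusted p = 1.35e-05). The ratios between the lines fell for TNF and CD40 and not for CD70 or LTA when both lines were in CSF, as the responses above already fix.

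TNFAIP2 was at least 1674-fold higher in REH in RPMI and at least 2994-fold higher in CSF, each against 3 reads over the NALM-6 group. TNFRSF9 was 38.7-fold lower in REH than in NALM-6 in CSF (-2.43 ± 0.09), and has no ratio in RPMI, where both lines were at 0.

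TRAF1 was 4.42-fold higher in REH in RPMI (1.49 ± 0.14, adjusted p = 5.543e-06), whereas in CSF the difference was -0.18 ± 0.14 (adjusted p = 0.3619), with a 95% interval of -0.48 to 0.13. TRAF2 was not called in RPMI (-0.29 ± 0.26, 95% interval -0.86 to 0.28) or in CSF (0.23 ± 0.26, 95% interval -0.34 to 0.80). TRAF3 was not called in RPMI (-0.04 ± 0.28, adjusted p = 0.9098). Without NALM-6 RPMI library 1 alone its difference in RPMI was -0.41, also not called (adjusted p = 0.05209). With REH CSF library 3 left out too, the same difference was called (adjusted p = 5.978e-05). That library enters the RPMI comparison only through the estimate of spread that the groups share. In CSF the difference of TRAF3 was -0.72 ± 0.28 (adjusted p = 0.06249, interval -1.34 to -0.11), and no library of REH reached NALM-6. It was called in 7 of 24 alternatives, with adjusted p from 5.563e-06 to 0.2183. The intervals of TRAF2 thus leave room for a difference of more than 1.5-fold in either medium.

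**Figure D3:**
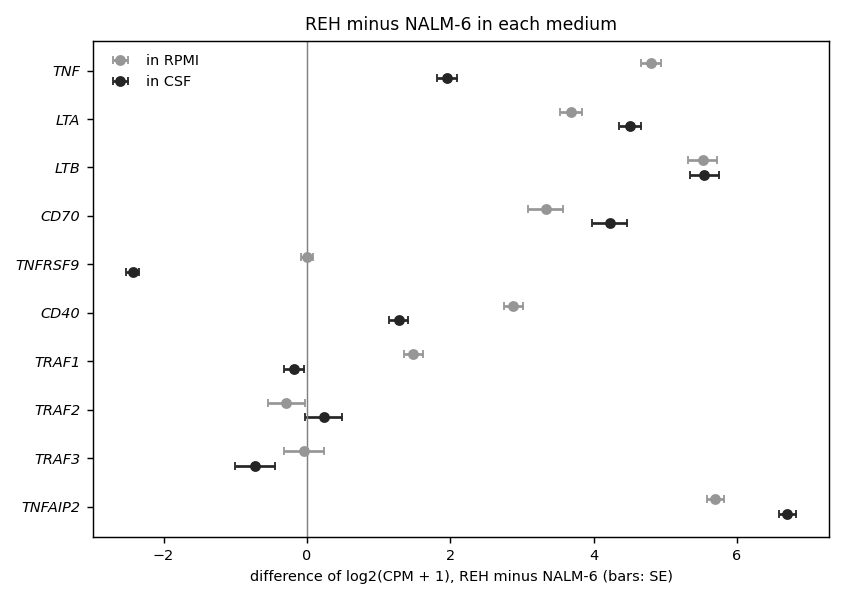
Difference of log2(CPM + 1) between REH and NALM-6 for the 10 genes in RPMI (grey) and in CSF (black), with bars for the SE from the limma fit on 3 libraries per group. TNF and CD40 are nearer to 0 in CSF than in RPMI, LTB, CD70 and TNFAIP2 stay far to the right, and TNFRSF9 lies at 0 in RPMI and at -2.43 in CSF.

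The genes of the TNF cluster on chromosome 6 were next compared with their neighbours within 50 kb. LST1 and AIF1, leukocyte genes beyond LTB, were low in NALM-6 with means of 0.603 ± 0.291 and 1.77 ± 1.502 CPM in RPMI (SD, n = 3) and 0.675 ± 0.170 and 1.68 ± 0.24 CPM in CSF. In REH they were at 25.7 ± 2.0 and 33.5 ± 1.9 CPM in RPMI and 52.7 ± 20.7 and 51.8 ± 20.4 CPM in CSF. The differences between REH and NALM-6 in RPMI were 4.07 ± 0.24 and 3.76 ± 0.33, given with no p-value, since LST1 passed the level filter only through REH. In NALM-6 CSF, however, LST1 (0.07 ± 0.24, adjusted p = 0.8573) and AIF1 (0.07 ± 0.33, adjusted p = 0.9115) were not called, and neither were LTA and LTB. The NALM-6 groups of LTA and LTB still did not overlap, with means 1.45-fold and 2.76-fold higher in CSF. TNF, between LTA and LTB, had the difference of 3.46 described above. Another neighbour, ATP6V1G2, was higher in NALM-6 CSF than in NALM-6 RPMI, at 1.91 ± 0.23 against 0.825 ± 0.066 CPM (0.67 ± 0.14, adjusted p = 0.01025), and higher in REH than in NALM-6 in RPMI (1.34 ± 0.14, adjusted p = 1.27e-05). ATP6V1G2 overlaps NFKBIL1 on the opposite strand, which averaged 15.7 to 31.8 CPM by group. The strand setting of the counting is not given, so reads of the 2 genes may have been shared. The other neighbours DDX39B, NFKBIL1 and PRRC2A were expressed in all 4 groups, at 15.7 to 944 CPM on average. Of these, DDX39B was called higher in REH in RPMI (1.36 ± 0.47, adjusted p = 0.0411), and NFKBIL1 and PRRC2A were not called there.

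**Figure D4:**
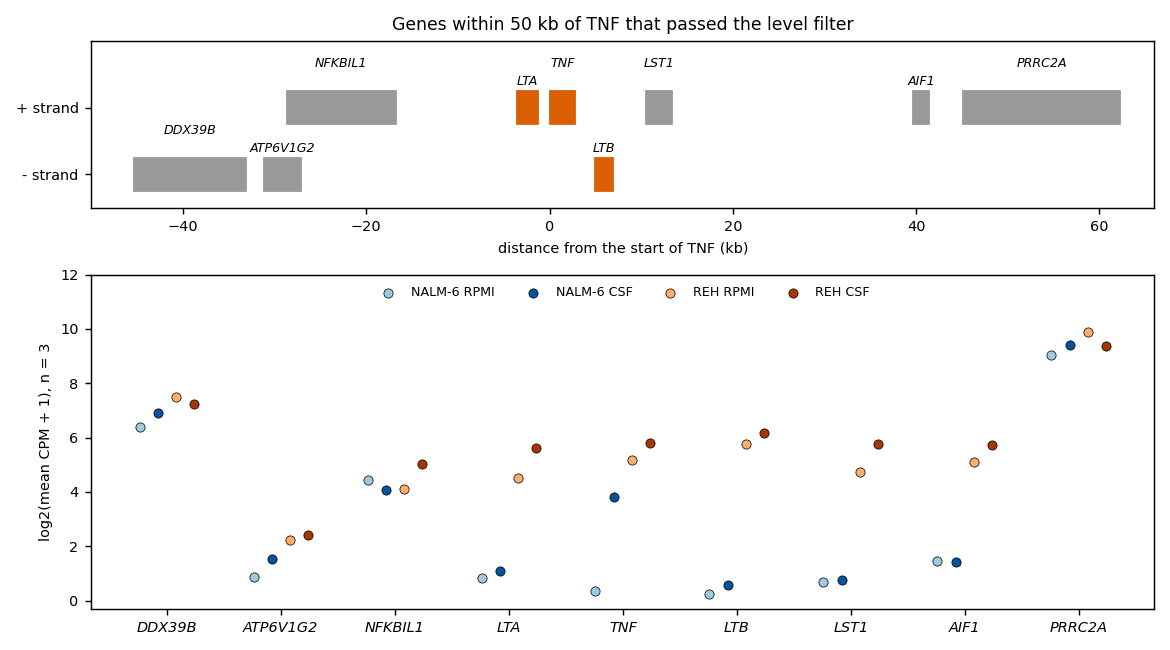
Top, genes within 50 kb of TNF that passed the level filter, drawn to scale by strand against the distance from the start of TNF in kb, with members in orange. Bottom, their mean level per group as log2(mean CPM + 1), n = 3 libraries: LTA, LTB, LST1 and AIF1 are low in NALM-6 in both media and high in REH, while TNF, between LTA and LTB, is raised in NALM-6 CSF, at 13.2 CPM.

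By likeness to TNF over the 12 libraries, the protein-coding genes with the highest Pearson correlation of log2(CPM + 1) were EGR1 (0.991), RILPL1 (0.982), GPR65 (0.981), TNFRSF1A (0.980) and NDC80 (0.980). The 12 libraries fall into 4 groups, so these values describe an order of group levels and carry no test. In all, 52 genes exceeded 0.95. EGR1, an immediate early transcription factor, was at 1.40 ± 0.69, 15.3 ± 0.9, 31.3 ± 5.1 and 41.1 ± 3.4 CPM in NALM-6 RPMI, NALM-6 CSF, REH RPMI and REH CSF (SD, n = 3). TNFRSF1A, which encodes the main TNF receptor, followed the same order at 16.3 ± 1.6, 37.9 ± 0.8, 55.9 ± 2.1 and 85.7 ± 7.0 CPM.

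Other genes of the pathway were taken from 6 lists, which were also chosen with earlier results of these data known. Their counts of genes that rose in CSF stand beside the 10.9% of all genes called higher in NALM-6 and the 13.2% in REH. TNFSF10 and NGFR passed the level filter only through REH, TNFRSF8 only through NALM-6, and BIRC3, CD86 and CXCL8 only through CSF. Their differences in that direction are therefore given with no p-value, although the counts include them. List genes were named for being called in both lines or between the lines in RPMI, with the largest differences. The adjusted p-values printed for them below are therefore a description and no independent support. Of 14 other TNF superfamily ligands, 5 were tested, and 2 rose in CSF in NALM-6 and 4 in REH. The median difference of the 5 was 0.31 in NALM-6 and 0.50 in REH, against 0.25 and 0.07 over all genes. TNFSF9, the ligand of 4-1BB, had a median of 2.13 CPM (1.94 to 2.93) in NALM-6 RPMI and 18.8 CPM (17.3 to 19.5) in NALM-6 CSF, a rise of 2.56 ± 0.14 (adjusted p = 2.761e-06). In REH it rose from 2.34 CPM (1.90 to 2.35) to 35.6 CPM (34.5 to 41.2), by 3.57 ± 0.14 (adjusted p = 8.177e-08). The 4-1BB ligand therefore rose in both lines, whereas its receptor TNFRSF9 exceeded 1 CPM only in NALM-6 CSF.

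TNFSF4, the ligand of OX40, rose by 2.53 ± 0.32 in NALM-6 (adjusted p = 0.000586) and by 2.48 ± 0.32 in REH (adjusted p = 0.0003519), to medians of 71.6 and 123 CPM. TNFSF10, which encodes TRAIL, was at or under 0.0653 CPM in all NALM-6 libraries and had a median of 3.28 CPM in REH RPMI (2.09 ± 0.11). EDA, the ligand of the ectodysplasin receptor, was lower in REH in RPMI (-2.13 ± 0.19, adjusted p = 5.26e-06). CD40LG and FASLG did not pass the level filter.

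Of 26 other receptors, 16 were tested, and 7 rose in NALM-6 and 11 in REH. The median difference was 0.71 and 0.84. FAS, a death receptor, had a median of 3.80 CPM in NALM-6 RPMI (1.24 to 3.85) and 39.1 CPM in NALM-6 CSF (38.9 to 39.4), a rise of 3.43 ± 0.26 (adjusted p = 1.722e-05). It rose by 3.99 ± 0.26 in REH (adjusted p = 2.305e-06). FAS overlaps ACTA2 on the opposite strand, which reached 43.5 CPM, and the strand setting of the counting is not given in the sources used here, so reads of the 2 genes may have been shared.

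The TRAIL receptors TNFRSF10B and TNFRSF10D also rose in both lines. TNFRSF10B, which overlaps RHOBTB2 on the other strand, rose by 2.24 ± 0.31 in NALM-6 (adjusted p = 0.001123) and by 1.97 ± 0.31 in REH (adjusted p = 0.001442). TNFRSF10D, a decoy receptor, rose by 1.99 ± 0.33 (adjusted p = 0.003413) and 1.83 ± 0.33 (adjusted p = 0.003446), though the NALM-6 call was lost with only the NALM-6 groups in the fit (adjusted p = 0.07186). TNFRSF8, which encodes CD30, was at 13.3 CPM (median) in NALM-6 RPMI and 0.106 CPM in REH RPMI (-3.66 ± 0.14). NGFR, the low-affinity neurotrophin receptor, was at most 0.0808 CPM in NALM-6 and had medians of 7.12 CPM in REH RPMI and 23.4 CPM in REH CSF, a rise of 1.62 ± 0.12 (adjusted p = 8.056e-06).

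Of 21 adaptors and ubiquitin enzymes tested, 4 rose in NALM-6 and 2 in REH, with medians of 0.41 and 0.28. BIRC3, a ubiquitin ligase that binds TRAF2, differed between CSF and RPMI by 1.95 ± 0.20 in NALM-6, with a median of 3.95 CPM in CSF, and by 1.04 ± 0.20 in REH, with a median of 2.43 CPM. TNFAIP3, which encodes the NF-kB brake A20, had medians of 87.6 CPM in NALM-6 RPMI, 223 in NALM-6 CSF, 360 in REH RPMI and 251 CPM in REH CSF. Its lowest value, 21.2 CPM, was in NALM-6 RPMI library 1, and it was higher in REH in RPMI by 2.68 ± 0.45 (adjusted p = 0.0006049), or by 2.003 without that library and REH CSF library 3. An antisense RNA that overlaps TNFAIP3 reached 22.7 CPM. TRAF3IP2, an adaptor of the interleukin-17 receptor that binds TRAF3, was lower in REH in RPMI, at a median of 38.6 CPM against 242 CPM (-2.54 ± 0.14, adjusted p = 5.655e-08). Antisense RNAs that overlap TRAF3IP2 reached at most 6.19 CPM.

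Of the 11 kinases and kinase partners of NF-kB signaling, limma called 0 in NALM-6 CSF against RPMI, with 1 at an unadjusted p under 0.05, and edgeR called 0 and DESeq2 1. In REH limma called 2 higher, with 4 at an unadjusted p under 0.05, and edgeR and DESeq2 called 0. MAP3K14, the NF-kB-inducing kinase whose protein TRAF2 and TRAF3 control, was higher in REH in RPMI, at a median of 26.7 CPM against 13.3 CPM (0.89 ± 0.13, adjusted p = 0.0001708). An antisense RNA that overlaps MAP3K14 reached 7.89 CPM, so reads may have been shared.

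Of 10 NF-kB subunits and inhibitors, 4 rose in NALM-6, and in REH 2 rose and 1 fell, with medians of 1.27 and 0.40. RELB and NFKB2, the subunits of the alternative pathway that CD40 and lymphotoxin receptors use, rose in both lines. RELB went from a median of 6.33 to 34.8 CPM in NALM-6 (2.08 ± 0.19, adjusted p = 6.413e-05) and from 8.37 to 23.8 CPM in REH (1.27 ± 0.19, adjusted p = 0.0009529). NFKB2 went from 26.7 to 78.5 CPM (1.41 ± 0.15, adjusted p = 0.0002237) and from 40.6 to 90.9 CPM (1.04 ± 0.15, adjusted p = 0.0008776). BCL3, an atypical IkB protein, had a median of 2.03 CPM in NALM-6 RPMI, 16.4 in NALM-6 CSF, 19.1 in REH RPMI and 28.8 CPM in REH CSF, the order of TNF and CD40. NFKBIA, the classical inhibitor, was higher in REH than in NALM-6 in RPMI (1.01 ± 0.13, adjusted p = 9.502e-05) and fell by 0.61 in REH in CSF (SE 0.13, adjusted p = 0.008975).

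Of 18 genes listed as known responses to TNF or CD40, 11 were tested, and 7 rose in NALM-6 and 8 in REH. The median difference was 1.31 and 1.06. CXCL8, a neutrophil chemokine, had no read in NALM-6 RPMI and a median of 2.22 CPM in NALM-6 CSF (1.70 ± 0.10). Its medians were 0.985 CPM in REH RPMI and 12.4 CPM in REH CSF (2.74 ± 0.10). CD86, a costimulatory ligand of T cells, had medians of 0.162 CPM in NALM-6 RPMI and 2.81 CPM in NALM-6 CSF (1.60 ± 0.11), and of 0.317 CPM in REH RPMI and 8.16 CPM in REH CSF (2.80 ± 0.11). IER3, an early stress response gene, rose by 1.68 ± 0.20 in NALM-6 (adjusted p = 0.0003811) and by 1.66 ± 0.20 in REH (adjusted p = 0.0002085). CFLAR, the inhibitor of caspase-8, was higher in REH in RPMI (1.20 ± 0.28, adjusted p = 0.006274). These lists are no measure of pathway activity, and their shares were not tested against those of other genes.

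**Figure D5:**
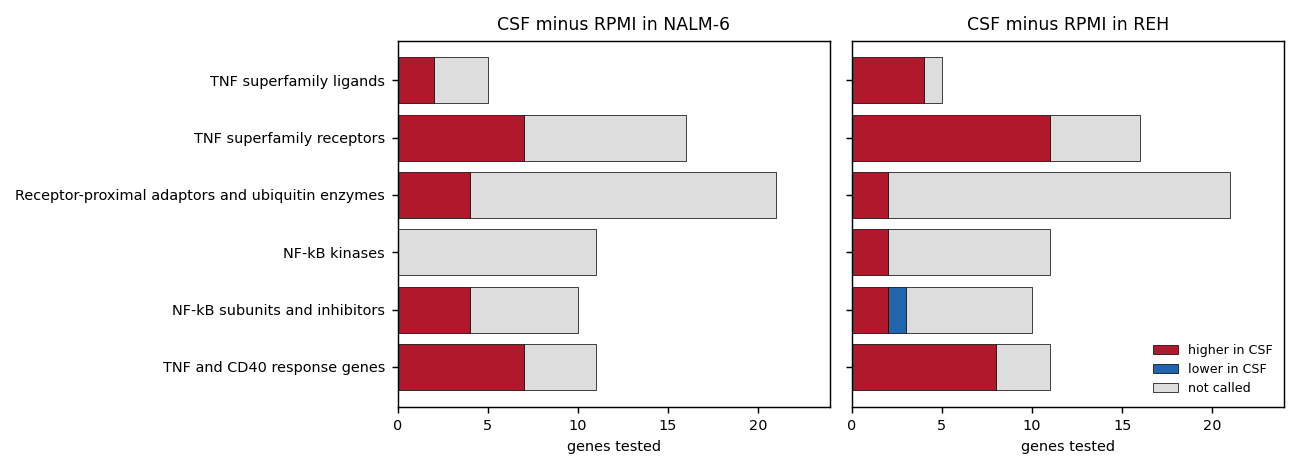
Number of tested genes called higher (red), lower (blue) or not called (grey) in CSF against RPMI, for the 6 pathway lists in NALM-6 (left) and REH (right), by limma at an adjusted p under 0.05. The receptors hold 7 of 16 called higher in NALM-6 and 11 of 16 in REH, the response genes 7 and 8 of 11 and the adaptors 4 and 2 of 21, where 10.9% and 13.2% of all genes were called higher.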

How the data were processed

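RNA was extracted with a Qiagen kit and made into stranded TruSeq mRNA libraries, per the labels' protocols. Per the submitters' processing notes, the build was GRCh38 and the tools included HISAT2 2.1.0, Trimmomatic 0.33, featureCounts, FastQC and edgeR. The strand setting and the annotation release were not given in the sources used here. Deposited by the authors were CPM values (reads per 1000000) for 60617 genes, with no further scaling, since every column summed to 1000000. Of the values, 100% were whole multiples of 1 read (tolerance 1e-06), which gave reads per library for the count tests. Positions came from GENCODE 29, which held 58542 of the IDs.

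The main test was limma 3.58.1 (R 4.3.3) on log2(CPM + 1), with 4 group means over 12 libraries (8 residual degrees of freedom), two-sided, with Benjamini-Hochberg adjustment over the 14364 genes with at least 1 CPM in 3 libraries. edgeR 4.0.16 and DESeq2 1.42.0 on the recovered reads were among the alternatives, with other pseudocounts, filters, scalings, a replicate block and each library left out. The script was tested on simulated data.

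The members and lists were chosen with earlier results of these data known. Named are all 10 members, up to 3 genes per list called the same way in both lines with the largest mean response, up to 2 per list with the largest difference called between the lines in RPMI, and the 5 genes most correlated with TNF. LST1, AIF1 and the other neighbours of TNF were chosen by position after values were seen. A kinase-list gene that this rule also names is not reported here. Of the 26 receptors listed, 1 was not matched by symbol, and SOD2, on more than 1 row, was represented by the row with more reads.

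Groups and replicate numbers came from the titles. Deviations from group means correlated at 0.36, 0.19 and 0.17 between same-numbered NALM-6 RPMI and NALM-6 CSF libraries. Between same-numbered NALM-6 RPMI and REH RPMI libraries they correlated at 0.40, 0.14 and 0.31. In these comparisons, differently numbered libraries reached 0.23 (NALM-6 RPMI 3 with NALM-6 CSF 2) and 0.26 (NALM-6 RPMI 2 with REH RPMI 3). These values do not settle whether same-numbered libraries are pairs, and the main test did not pair them. Between REH RPMI and REH CSF, same-numbered libraries gave -0.46, 0.24 and -0.32, and differently numbered ones reached 0.48 (REH RPMI 1 with REH CSF 3). Between NALM-6 CSF and REH CSF, same-numbered libraries gave -0.35, 0.03 and -0.17, and differently numbered ones reached 0.30 (NALM-6 CSF 1 with REH CSF 3). No pair of replicates agreed within sampling noise (chi-square per gene at least 3.8).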

Additional observations from a re-analysis of the deposited data

Results flagged for a closer look

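For 6 named pathway genes the response to CSF differed between the lines by limma's test of the difference (adjusted over all genes). It was smaller in REH for BCL3 (REH minus NALM-6, -2.23 ± 0.28, SE) and TNFAIP3 (-2.65 ± 0.63). The value of TNFAIP3 rests in part on NALM-6 RPMI library 1, with 21.2 CPM against 87.6 and 92.5 CPM. It was -1.97 without that library, and the call (adjusted p = 0.04256) held in 9 of 23 alternatives. The response was larger in REH for NGFR (1.60 ± 0.17), CD86 (1.20 ± 0.16), CXCL8 (1.04 ± 0.14) and TNFSF9 (1.02 ± 0.20). The value of CXCL8 depends on the scale: it was 0.0059 with a pseudocount of 0.25, and its sign turned in the count fits, to -4.83 in DESeq2 and -5.51 in edgeR. CD86 and NGFR were not called in either count fit. TNFSF9 was called in 19 of 23 alternatives. NGFR had at most 0.0808 CPM in NALM-6, so its difference rests on REH alone. These 6 genes were named by their calls above, so these tests are not independent support.

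For 5 members the same fit also gave a difference past its threshold, but these are the values that the members were chosen by, so they are given with no test: -2.85 ± 0.19 for TNF, -2.43 ± 0.12 for TNFRSF9, -1.66 ± 0.19 for TRAF1, -1.60 ± 0.19 for CD40 and 1.01 ± 0.17 for TNFAIP2, which had no read in NALM-6.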

How the results depend on the processing

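The member counts under alternatives are over all 10 members, with LTA, LTB, TNFAIP2 and TNFRSF9 included. Of these counts, 116 stayed within 1.5 times the value reported and 3 did not. edgeR called 3 members in REH in place of 6. In the difference of the responses, edgeR and DESeq2 each called 3 in place of 5. Leaving out 1 library gave 4 to 5 members called in NALM-6, 4 to 6 in REH, 7 to 7 between the lines in RPMI, 6 to 8 in CSF and 4 to 6 in the difference of the responses. TNFRSF9 was not tested with a filter at 5 CPM or without a NALM-6 CSF library. The signs of small differences that were not called turned for TRAF2 in RPMI, to 0.0174 without NALM-6 RPMI library 1, alone or with REH CSF library 3 (from -0.463 to 0.0174 over libraries left out), and for TRAF3 in RPMI, to 0.138 and 0.142 without NALM-6 RPMI library 2 or 3 (from -0.409 to 0.142 over libraries left out). The cause was not tested. TRAF1 in CSF was called between the lines only with quantile normalization (adjusted p = 0.03671).

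With the replicate block, 5 members were called in NALM-6 and 7 between the lines in RPMI, as without it. In these comparisons no call of a gene named in the text was lost. In the other comparisons, the block gave 4 members in REH, 7 between the lines in CSF and 4 in the difference of the responses. With the block, calls over all genes fell to 825 higher and 39 lower in NALM-6, from 1565 and 177, and to 231 and 74 in the difference of the responses, from 435 and 172. DESeq2 gave 1678 and 1703 in NALM-6, 1855 and 847 in REH, 3460 and 3706 between the lines in RPMI and 303 and 291 in the difference of the responses. edgeR gave 982 and 336 in NALM-6, 1177 and 426 in REH, 3061 and 3076 between the lines in RPMI and 59 and 57 in the difference. A filter at 5 CPM gave 210 and 91 in the difference, and quantile normalization 712 and 406 and only the groups compared 387 and 16 in NALM-6. Without 1 NALM-6 CSF library, 734 to 844 genes were higher and 44 to 58 lower in NALM-6, and 301 to 317 and 73 to 78 were called in the difference. NALM-6 RPMI library 1, left out alone, gave 3389 and 1307 in REH, 4810 and 3586 between the lines in CSF and 579 and 416 in the difference, and REH CSF library 2 gave 1190 and 153 in REH and 190 and 113 in the difference. Without NALM-6 RPMI library 1 and REH CSF library 3, 4263 and 1578 were called in NALM-6, 4361 and 1959 in REH, 5537 and 3925 between the lines in RPMI, 5453 and 4167 in CSF and 933 and 1019 in the difference. Of the list counts, 113 moved by more than 1.5 times and 601 did not. At this depth, TNFRSF9 in RPMI and TNFAIP2 in NALM-6 were not detectable.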
